A study of Mus musculus with 4 samples.

Results

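Store-operated calcium entry and its read-out through NFAT were followed over 10 genes in B10+ and B10- cells, the Il10-producing and non-producing B cells of mouse spleen. The genes were taken by name: Stim1, Stim2, Orai1, Orai2, Ppp3ca, Ppp3r1, Nfatc1, Nfatc2, Nfatc3 and Rcan1. Each had 1 entry among the 23699 of the deposited expression table, and no other entry of the table overlapped any of these loci. RNA came from 4 libraries, 2 of B10+ cells sorted among other markers as Cd1d high, Cd5 positive and Il10 positive, and 2 of B10- cells sorted as lacking Il10, Cd5 and Cd1d. All cells were C57BL/6 splenic B cells. Both subsets came from cells held for 48 h in anti-Cd40 antibody, to which ionomycin, PMA and LPS had been added 5 h before the end, so no library comes from unstimulated cells. The libraries form pairs, since a single culture yielded 1 of each subset, and the pairs are called culture 1 and culture 2. The comparison asks whether the 2 subsets of a stimulated culture carry different amounts of these mRNAs.

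As background, emptying of the endoplasmic reticulum calcium store is sensed by STIM proteins, which then open ORAI channels in the plasma membrane. The calcium that enters binds calmodulin and switches on calcineurin, a phosphatase made of a catalytic A and a regulatory B subunit. Calcineurin removes phosphates from NFAT proteins, which move into the nucleus and act with partners such as AP-1. In B cells this route lies downstream of the antigen receptor. B cells of mice that lack both Stim1 and Stim2 in this lineage are known to make less interleukin 10. Ionomycin, which both subsets received, is a calcium ionophore and raises cytosolic calcium without the antigen receptor.

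Values are the authors' FPKM (fragments per kilobase of transcript, scaled to the fragments of the library), which are scaled for length and can be set side by side between genes within a library. Between 34.5% and 37.3% of entries were listed at 0 in the libraries other than B10+ of culture 1, where 19.4% were. Of the sort genes, Il10 was at 1683 and 2329 FPKM in B10+ cells of cultures 1 and 2, against 9.26 and 9.62 in B10- cells. Cd5 was at 2.38 and 2.63 FPKM in B10+ cells, against 0.278 and 0.564 in B10- cells. Cd1d1 was at 2.75 and 0.879 FPKM in B10+ cells, against 1.01 and 0.235 in B10- cells, higher in B10+ cells in each culture but with overlap of the groups. The B cell marker Cd79a was detected in every library, at 25.9 and 31.4 FPKM in B10+ cells and 20.8 and 8.04 in B10- cells. Markers of NK cells summed to at most 0.769 FPKM and markers of granulocytes to at most 0.214 FPKM in any library, those of dendritic cells to at most 41.9, of stromal cells to at most 41.03 and of erythroid cells and platelets to at most 84.5 FPKM. Markers of macrophages and monocytes (10 genes) summed to 19.2 and 157.0 FPKM in B10+ cells, against 15.9 and 101.0 in B10- cells. Of the 3 tested, 2 were higher in B10+ cells in both cultures, against 33.4% of all tested entries. Mpeg1 alone was at 9.87 and 148.6 FPKM in B10+ cells, against 7.02 and 95.6 in B10- cells. Cd68 reached at most 7.55 and Emr1 at most 2.58 FPKM. Csf1r, Lyz2, Cd14, Itgam, Fcgr1, Ccr2 and Vcan stayed under 1 FPKM in every library. The part of these other cell types in the results was not tested.

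Of these genes Rcan1 differed most between the subsets on the log2(FPKM + 1) scale. Rcan1 mRNA was about 2-fold higher in B10+ cells in both cultures. Stim2 and the scarce Nfatc2 were the other genes whose 2 B10+ libraries both lay above both B10- libraries. Orai1 and Nfatc1 had nearly equal levels in the 2 subsets of a culture. No gene of the set passed the test over all entries.

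Rcan1 (chromosome 16, 92392198 to 92466391, mm9) encodes a calcineurin-binding protein that restrains the phosphatase and is itself induced through NFAT. It was at 16.2 and 9.36 FPKM in B10+ cells of cultures 1 and 2, against 6.80 and 5.06 in B10- cells. Both B10+ libraries were above both B10- libraries. The ratio of FPKM was 2.38 in culture 1 and 1.85 in culture 2. On the log2(FPKM + 1) scale, which understates changes of low genes, the difference was 0.96 ± 0.26 (SD between the cultures). Its rank within a library, which does not depend on how libraries are scaled, moved the same way: Rcan1 stood at the percentiles 52.8 and 41.5 among tested entries in B10+ cells, against 31.8 and 32.2 in B10- cells. The limma test without a term for the culture gave an adjusted p of 1. With the culture as a replicate block the adjusted p was 0.144 and the unadjusted p 0.00544, so Rcan1 did not pass the threshold of 0.05 in either fit. Over the 4 fits with the block the adjusted p of Rcan1 ranged over 0.144 to 0.216. An unadjusted p under 0.05 with the block was reached by 15.2% of all tested entries. A mean difference of at least this size, in either direction, was present in 5.43% of them. Differences at least as high as the smaller of the 2 Rcan1 differences were present in both cultures for 361 of 10367 entries (3.48%). Summed T cell markers, given with Nfatc2, were also higher in the B10+ library of each culture, and their part in the Rcan1 value was not tested.

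Rcan1 has 2 starts in the RefSeq table used for sequences, an outer start and an internal start, and the deposited table holds a single value for the whole gene, so the transcripts from the 2 starts cannot be told apart here. As background, the internal start is the one known to answer to calcineurin and NFAT. Both windows are shown because Rcan1 had the largest difference of the set. Each runs from 250 bases before to 50 after the start, 5′ to 3′ on the gene's strand, build GRCm38.p6, and capitals mark the NFAT core GGAAA on either strand (TTTCC where it lies on the opposite strand). The outer window is chr16:92466120-92466419 and the internal window chr16:92400029-92400328, both on the minus strand.
Rcan1 outer start: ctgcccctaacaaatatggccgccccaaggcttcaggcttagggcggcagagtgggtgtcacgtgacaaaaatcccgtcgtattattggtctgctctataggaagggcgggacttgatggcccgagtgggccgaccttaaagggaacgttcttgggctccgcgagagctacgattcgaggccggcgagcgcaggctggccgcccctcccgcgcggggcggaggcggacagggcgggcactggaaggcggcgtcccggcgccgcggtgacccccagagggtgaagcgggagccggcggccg
Rcan1 internal start: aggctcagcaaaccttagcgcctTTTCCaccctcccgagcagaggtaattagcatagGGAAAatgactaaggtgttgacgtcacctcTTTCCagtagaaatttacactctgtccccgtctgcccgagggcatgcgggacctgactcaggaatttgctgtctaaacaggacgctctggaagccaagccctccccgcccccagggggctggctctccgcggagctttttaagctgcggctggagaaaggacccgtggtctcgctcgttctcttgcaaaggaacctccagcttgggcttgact

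The outer Rcan1 window held no GGAAA on either strand. The internal window held 3, the first bases of which lie 227, 193 and 163 bases before the start, the one at 193 on the gene's strand. At least 3 matches were present in 9.42% of the 32851 promoter windows of this length. The internal window also held the AP-1 site TGANTCA, searched on both strands, once, 110 bases before the start, and this did not overlap a GGAAA. At least 1 TGANTCA was present in 7.81% of all windows. These matches are letters in a window, and binding was not measured. Windows were found for 8 of the 10 genes. Those of Stim1, Stim2, Orai1 and Ppp3r1 held no GGAAA, that of Orai2 held 1, and the 2 windows of Nfatc3 held 1 and 0. At least 1 GGAAA was present in 61.3% of all windows.

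**Figure D1:**
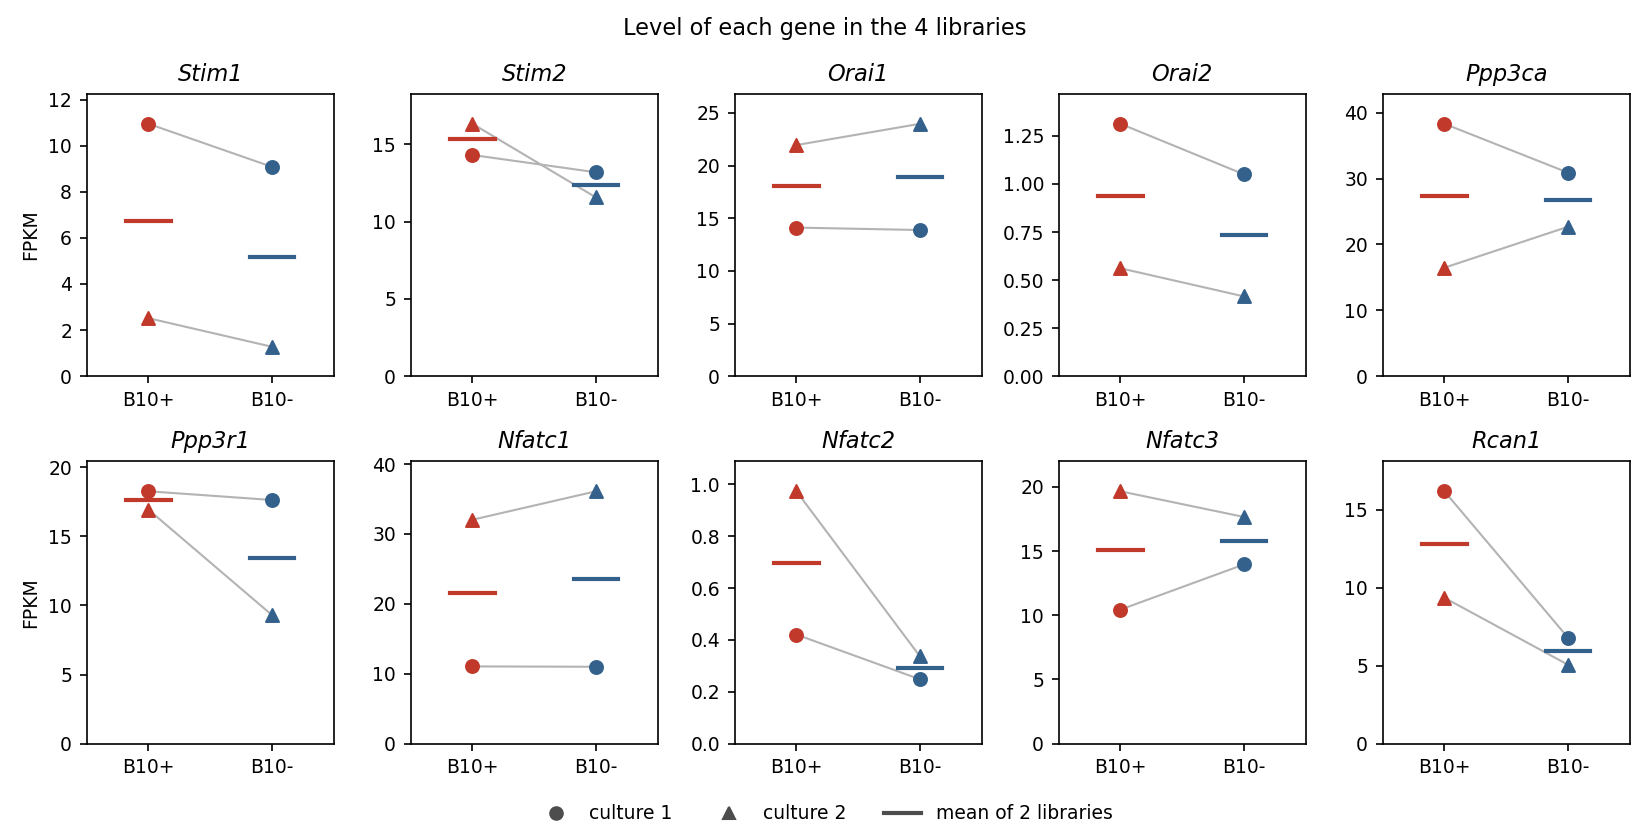
FPKM of each of the 10 genes (vertical axis, from 0, its own scale in each panel) in B10+ (red) and B10- (blue) libraries; circles are culture 1, triangles culture 2, grey lines join libraries of a culture and bars are means of 2 libraries. Rcan1, Stim2 and Nfatc2 are the genes whose B10+ points both lie above both B10- points.

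Of the 2 calcium sensors, Stim2 was steady across the cultures and Stim1 was not. Stim2 (chromosome 5, 54389762 to 54512296), which answers to small falls of the store, was at 14.3 and 16.3 FPKM in B10+ cells of cultures 1 and 2, against 13.2 and 11.6 in B10- cells. Both B10+ libraries were above both B10- libraries, by a ratio of 1.08 in culture 1 and 1.41 in culture 2. Stim1 (chromosome 7, 109416338 to 109585369), the sensor of deeper emptying, was at 10.95 and 2.52 FPKM in B10+ cells, against 9.08 and 1.27 in B10- cells. Stim1 was higher in B10+ cells within each culture, with ratios of 1.21 and 1.97, but the groups overlap, and culture 1 was the higher one in both subsets. Its level in culture 1 was 4.36 times that of culture 2 in B10+ cells and 7.12 times in B10- cells. The log2 difference between the subsets was 0.44 ± 0.27 for Stim1 and 0.29 ± 0.25 for Stim2 (SD between the cultures), and limma gave adjusted p of 0.376 and 0.487 with the block and 1 without it.

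The make-up of the sensor pair differed more between cultures than between subsets. Stim1 made up 43.3% and 13.3% of the summed Stim FPKM in B10+ cells of cultures 1 and 2, against 40.8% and 9.92% in B10- cells. The subsets thus differed by 2.58 and 3.41 percentage points within a culture. The sum of both sensors was 1.13 times as high in B10+ as in B10- cells in culture 1 and 1.47 times in culture 2.

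The channel genes were close to equal between the subsets. Orai1 (chromosome 5, 123465083 to 123480461), the pore subunit of the main store-operated channel of lymphocytes, was at 14.1 and 21.9 FPKM in B10+ cells and 13.9 and 24.0 in B10- cells of cultures 1 and 2. The log2 difference was -0.05 ± 0.10 (SD between the cultures), of opposite sign in the 2 cultures, and its 95% interval with the block ran from -0.46 to 0.36. Orai2 (chromosome 5, 136623332 to 136646526), a paralog known in mice to damp the current carried with Orai1, was at 1.31 and 0.561 FPKM in B10+ cells, against 1.05 and 0.415 in B10- cells. It was slightly higher in B10+ cells in both cultures, with a log2 difference of 0.16 ± 0.02, while the groups overlap. After quantile normalization the difference of Orai2 was -0.04, so its direction depends on the scaling. The limma adjusted p was 0.894 for Orai1 and 0.617 for Orai2 with the block, and 1 for each without it.

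Orai2 was the least of the channel paralogs in every library. Orai3, a paralog outside the set of 10, lay between 9.94 and 11.02 FPKM in all 4 libraries. Orai1 made up 54.9% and 67.6% of the summed Orai FPKM in B10+ cells of cultures 1 and 2, and 55.7% and 67.7% in B10- cells. Orai2 made up 5.11% and 1.73% in B10+ cells, against 4.21% and 1.17% in B10- cells. The Orai1 share differed by less than 1 percentage point between the subsets of a culture (-0.789 and -0.0566 points).

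**Figure D2:**
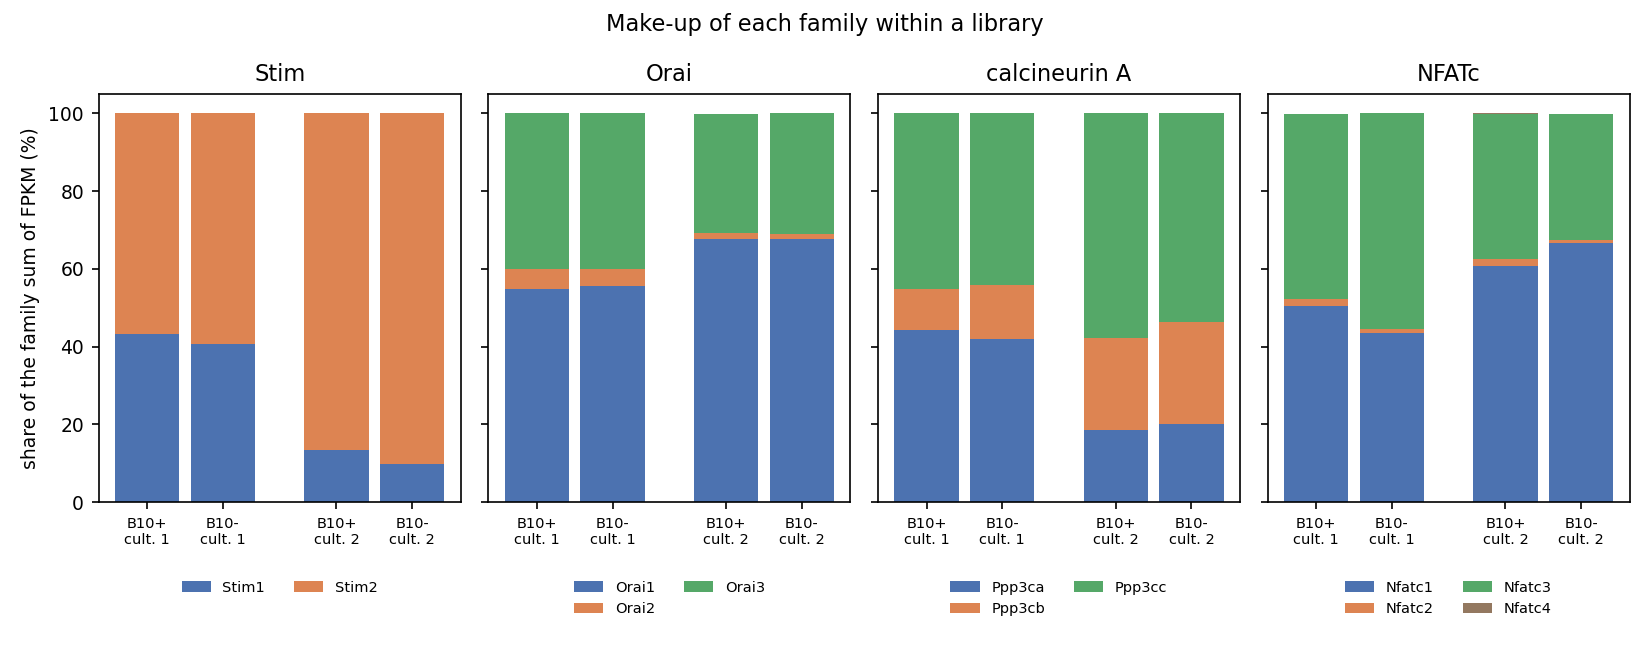
Share of each paralog in its family's summed FPKM (vertical axis, percent) in each library, with B10+ left of B10- in each culture. The families shown are Stim, Orai, calcineurin A and NFATc. Within a culture the Orai bars are alike. In B10+ cells the Stim1 share is 43.3% in culture 1 and 13.3% in culture 2, and the Ppp3ca share 44.4% and 18.6%.

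The calcineurin subunits had no shared direction. Ppp3ca (chromosome 3, 136333734 to 136598743), a catalytic A subunit, was at 38.3 and 16.5 FPKM in B10+ cells of cultures 1 and 2, against 30.9 and 22.7 in B10- cells. It was higher in B10+ cells in culture 1 and lower in culture 2, with a log2 difference of -0.07 ± 0.52 (SD between the cultures; limma with the block, adjusted p = 0.904). Ppp3r1 (chromosome 11, 17059301 to 17100383), the regulatory B subunit, was at 18.2 and 16.9 FPKM in B10+ cells, against 17.6 and 9.30 in B10- cells. The B10- library of culture 2 was the low one, and the groups overlap. Its log2 difference was 0.42 ± 0.53 (SD between the cultures; limma with the block, adjusted p = 0.458).

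Among the catalytic paralogs Ppp3cc, not Ppp3ca, had the largest share in every library. Ppp3cc made up 45.2% and 57.7% of the summed A subunit FPKM in B10+ cells, against 44.1% and 53.6% in B10- cells. Ppp3ca made up 44.4% and 18.6% in B10+ cells and 42.0% and 20.1% in B10- cells. The sum of the 3 A subunit genes was 1.17 times as high in B10+ as in B10- cells in culture 1 and 0.783 times in culture 2. Ppp3r1 stood at 21.1% and 19.1% of that sum in B10+ cells, against 23.9% and 8.23% in B10- cells. The B10- library of culture 2 was again apart from the other 3.

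The NFAT genes showed no common direction. Nfatc1 (chromosome 18, 80802944 to 80909810), the NFAT gene that is induced in activated lymphocytes, was at 11.05 and 32.03 FPKM in B10+ cells and 11 and 36.1 in B10- cells of cultures 1 and 2. The subsets of a culture were close, with ratios of 1.005 and 0.887, while culture 2 had 2.90 times the level of culture 1 in B10+ cells and 3.28 times in B10- cells. On the log2 scale the difference was -0.08 ± 0.12 (SD between the cultures), with a 95% interval of -0.49 to 0.33 and an adjusted p of 0.821 (limma with the block). Nfatc3 (chromosome 8, 108583503 to 108654437), another calcineurin-dependent member, was at 10.4 and 19.7 FPKM in B10+ cells, against 14.0 and 17.7 in B10- cells. It was lower in B10+ cells in culture 1 and higher in culture 2, with a log2 difference of -0.12 ± 0.38 (SD between the cultures; limma with the block, adjusted p = 0.798).

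Nfatc2 (chromosome 2, 168301910 to 168427155), which is abundant in resting T cells, stayed under 1 FPKM in every library. It was at 0.421 and 0.973 FPKM in B10+ cells of cultures 1 and 2, against 0.248 and 0.336 in B10- cells. Both B10+ libraries were above both B10- libraries, by ratios of 1.70 and 2.89. Nfatc2 was therefore below the filter of 1 FPKM in at least 2 libraries and was not tested. Without that filter its limma adjusted p was 0.365 with the block and 1 without it. T cell markers were also higher in the B10+ library of each culture. Their summed level over 17 genes was 37.8 and 26.1 FPKM in B10+ cells, against 19.0 and 8.93 in B10- cells. From culture 1 to culture 2 this sum fell in both subsets, but single markers moved in both directions in B10+ cells. Cd2 went from 20.3 to 10.3 FPKM there and Zap70 from 0.912 to 1.67 FPKM. Of those 17, 4 were tested, 3 of which were higher in B10+ cells in both cultures, against 33.4% of all tested entries. Cd2 and Lck, which B cells can also express, had the highest levels, and Cd3e was at 0.0257 and 0.298 FPKM in B10+ cells and listed at 0 in both B10- libraries, as were Cd3g, Cd4, Trat1, Themis and Bcl11b. The part of these transcripts in the Nfatc2 value was not tested. In sorted bulk cells fewer cells of a type and less RNA per cell cannot be told apart.

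Nfatc1 and Nfatc3 made up nearly all NFAT mRNA of the c family. Nfatc1 held 50.4% and 60.8% of its summed FPKM in B10+ cells, against 43.6% and 66.7% in B10- cells. Nfatc2 held 1.92% and 1.85% in B10+ cells, against 0.984% and 0.622% in B10- cells. Nfatc4 was listed at 0 in both B10- libraries and at 0.00854 and 0.0109 FPKM in B10+ cells. Windows of Nfatc2 and Stim2, the other genes whose groups do not overlap, are shown for comparison with those of Rcan1, marked in the same way.
Nfatc2 outer start, chr2:168601608-168601907, minus strand: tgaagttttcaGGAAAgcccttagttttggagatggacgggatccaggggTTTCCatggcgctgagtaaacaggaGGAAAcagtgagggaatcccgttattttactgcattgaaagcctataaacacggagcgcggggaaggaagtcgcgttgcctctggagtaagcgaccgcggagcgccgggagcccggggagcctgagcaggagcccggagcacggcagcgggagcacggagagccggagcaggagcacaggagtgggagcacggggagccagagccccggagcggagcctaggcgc
Stim2, chr5:53998273-53998572, plus strand: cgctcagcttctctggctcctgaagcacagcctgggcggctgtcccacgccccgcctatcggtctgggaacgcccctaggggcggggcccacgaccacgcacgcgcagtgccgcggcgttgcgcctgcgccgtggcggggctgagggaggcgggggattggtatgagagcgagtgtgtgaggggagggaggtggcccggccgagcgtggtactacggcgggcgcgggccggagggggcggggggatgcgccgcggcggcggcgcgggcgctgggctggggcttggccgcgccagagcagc

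The outer Nfatc2 window held 3 GGAAA, 2 of them on the gene's strand, and the other Nfatc2 window 1. Of all windows, 9.42% held at least 3 GGAAA and 61.3% at least 1. The Stim2 window had 76.7% G and C bases and held none. No TGANTCA was found in either. As with Rcan1, the expression values cannot say from which start the RNA came.

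The genes were set against all entries by counts and medians, with no test of the set. Of the 9 tested, 5 were higher in B10+ cells in both cultures, against 33.4% of all tested entries, and 0 were lower in both, against 31.8%. The 5 were Stim1, Stim2, Orai2, Ppp3r1 and Rcan1. Groups did not overlap for 2 of the 9 (Stim2 and Rcan1), against 14.1% of all tested entries. Both had B10+ above B10-, which held for 6.6% of entries, while the opposite held for 0 of the 9 and 7.47% of entries. The median log2 difference of the 9 was 0.16 (0.11 in culture 1 and 0.15 in culture 2), while that of all 10367 entries was 0.00. After quantile normalization the median of the 9 was -0.04 and that of all entries -0.07. Without the culture in the model 0 of the 9 passed (0.0% of all entries), and none had an unadjusted p under 0.05, against 1.14% of entries. With the culture as a replicate block 0 of the 9 passed, against 0.858% of all entries (81 higher and 8 lower), and 1 had an unadjusted p under 0.05. Of the 9 tested genes, 8 had a 95% interval with the block that includes 0, and these intervals reach 0.95 for Stim1 and 1.06 for Ppp3r1.

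**Figure D3:**
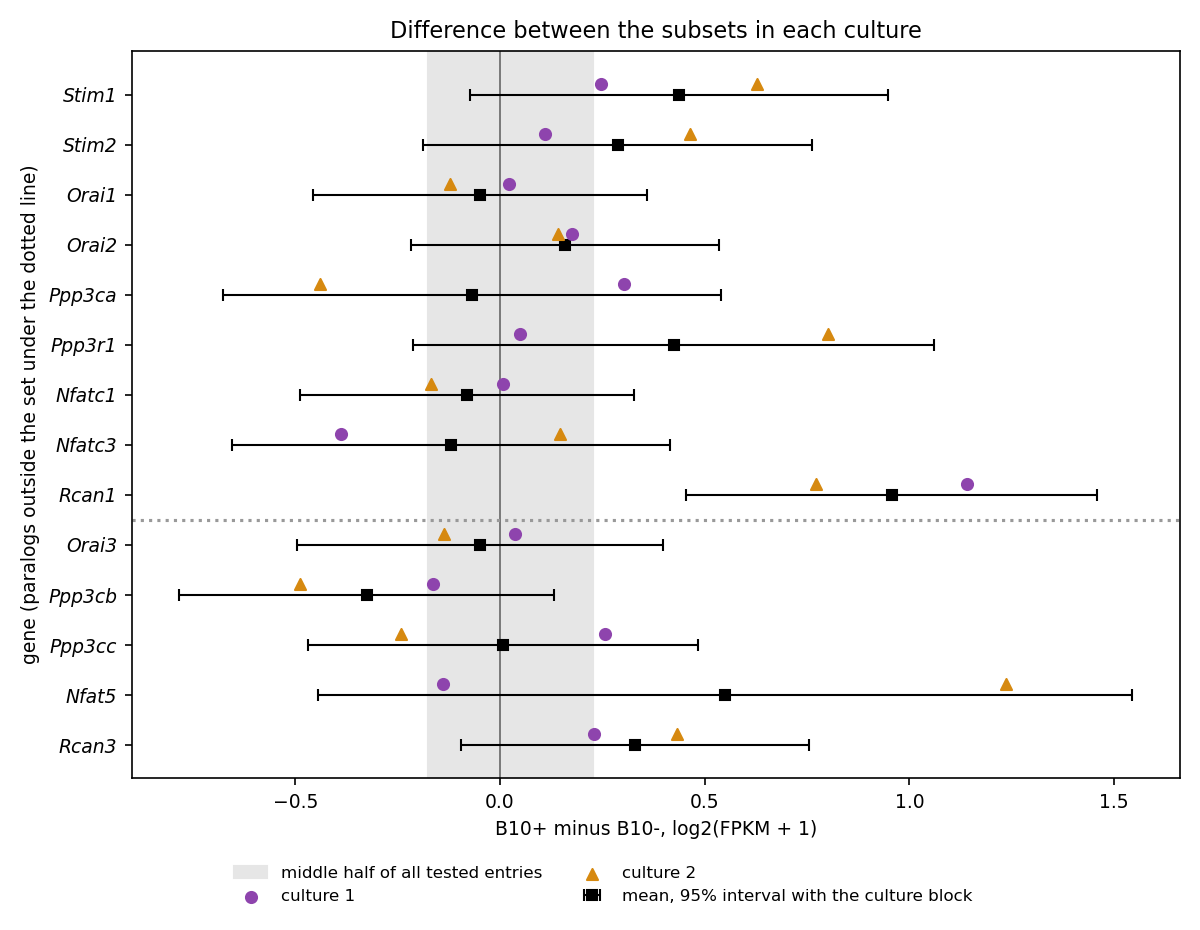
B10+ minus B10- on the log2(FPKM + 1) scale (horizontal axis) for the 9 tested genes and 5 tested paralogs, with each culture as a point, the mean as a square and its unadjusted 95% interval from the fit with the culture block. Rcan1, at 0.96, is the gene whose interval leaves out 0; the grey band holds the central 50% of all tested entries.

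Cultures differed by more than subsets for 7 of the 9 tested genes, against 83.4% of all tested entries. The exceptions were Stim2 and Rcan1. Averaged over the subsets, culture 2 minus culture 1 was -1.96 for Stim1, 1.54 for Nfatc1 and 0.00 for Stim2 on the log2(FPKM + 1) scale. Both subsets moved alike between the cultures for Stim1 (-1.77 in B10+ and -2.15 in B10- cells) and Nfatc1 (1.45 in B10+ and 1.63 in B10- cells). For Stim2 the subsets moved in opposite directions (0.18 in B10+ and -0.18 in B10- cells), which cancel in the mean. Orai1, Nfatc1 and Nfatc3 were higher in culture 2 in both subsets, and Stim1, Orai2, Ppp3ca, Ppp3r1 and Rcan1 were lower.

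**Figure D4:**
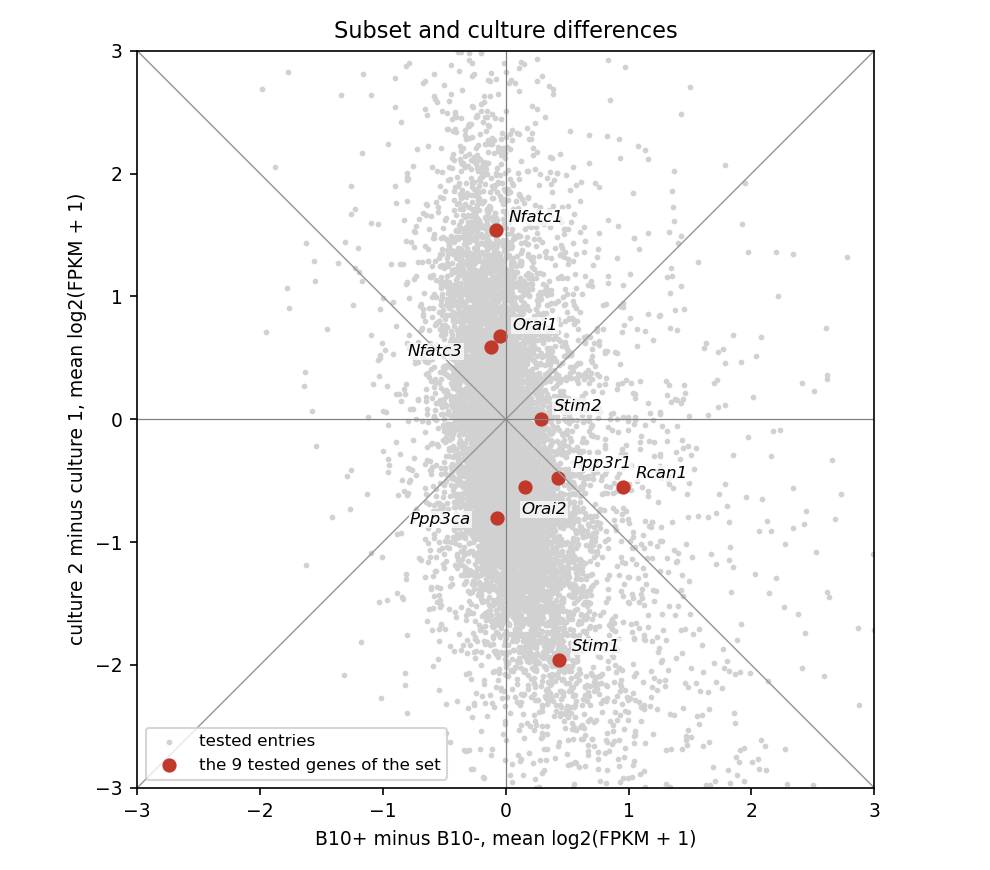
Mean difference between the subsets (horizontal axis) against the mean difference between the cultures (vertical axis), both on the log2(FPKM + 1) scale, for the 9 tested genes in red and all tested entries in grey, of which 203 lie outside the plotted range. Stim1 at -1.96 and Nfatc1 at 1.54 lie far along the culture axis, and Rcan1 lies farthest along the subset axis.

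Ordered by the mean of the 2 cultures, Ppp3ca came first in both subsets and Nfatc2 last. Within cultures the order differed: Ppp3ca was first in culture 1 and Nfatc1 in culture 2, in both subsets. Nfatc2 was lowest in 3 libraries and Orai2 in the B10+ library of culture 2. In B10+ cells Ppp3ca averaged 27.4 ± 15.5 FPKM, Nfatc1 21.5 ± 14.8, Orai1 18.03 ± 5.54 and Ppp3r1 17.6 ± 0.938 FPKM (SD, n = 2 each). Stim2 at 15.3 ± 1.43, Nfatc3 at 15.1 ± 6.52, Rcan1 at 12.8 ± 4.83 and Stim1 at 6.74 ± 5.97 FPKM followed (SD, n = 2 each). In B10- cells the order after Ppp3ca, Nfatc1 and Orai1 was Nfatc3, Ppp3r1, Stim2, Rcan1 and Stim1. No neighbours in the B10+ order differed by more than the sum of their SDs. In B10- cells 1 pair did, Stim2 at 12.4 ± 1.15 FPKM above Rcan1 at 5.93 ± 1.23 FPKM (SD, n = 2 each).

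The paralogs outside the set were 8 genes, of which 5 were tested and 0 passed with or without the block. Of all tested entries 0.858% passed with the block and 0 without it. A count of 0 in this or a later short list therefore says little about its genes. Nfat5, the calcium-independent tonicity factor of the family, was at 3.11 and 26.5 FPKM in B10+ cells, against 3.52 and 10.7 in B10- cells of cultures 1 and 2. Ppp3cb, another catalytic subunit, was lower in B10+ cells in both cultures, at 9.03 and 20.9 FPKM against 10.2 and 29.8 in B10- cells. Rcan3, a relative of Rcan1, was higher in both, at 3.42 and 0.879 FPKM in B10+ cells against 2.77 and 0.393 in B10- cells. The groups overlap for all of these. Rcan1 held 82.3% and 91.4% of the summed Rcan FPKM in B10+ cells, against 71.0% and 92.8% in B10- cells.

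Genes that tune the STIM and ORAI step were 7, with 5 tested, a median log2 difference of -0.03, and 0 past the threshold in either fit. Asph, whose locus also encodes the store protein junctate, was at 21.8 and 41.5 FPKM in B10+ cells and 35.4 and 35.1 in B10- cells. Tmem66, also called Saraf, which switches STIM off, was at 35.8 and 10.5 FPKM in B10+ cells and 31.6 and 7.58 in B10- cells. Homer1, a scaffold protein, was at 23.2 and 36.9 FPKM in B10+ cells and 27.0 and 38.6 in B10- cells. The groups overlap for each of the 3.

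Store release was measured by 5 genes, all tested, with 0 past the threshold. All 5 were of mixed direction between the cultures, as were 3607 of all 10367 tested entries. Plcg1, which makes the messenger IP3, was at 8.18 and 5.86 FPKM in B10+ cells, against 8.20 and 2.61 in B10- cells. The IP3 receptor genes Itpr2 and Itpr3 had log2 differences of 0.19 ± 0.66 and 0.26 ± 0.38 (SD between the cultures). Among 10 genes of calcium clearance and uptake, 7 were tested and 0 passed, against 0.858% of all tested entries with the block. Ccdc109a, now called Mcu, the pore of the mitochondrial calcium uniporter, was at 10.3 and 18.4 FPKM in B10+ cells, against 6.12 and 7.76 in B10- cells. Both B10+ libraries were above both B10- libraries, with a log2 difference of 0.91 ± 0.34 (SD between the cultures; adjusted p = 0.18 in limma with the block and 1 otherwise). The pump genes Atp2a3 and Atp2c1 had log2 differences of 0.36 ± 0.52 and 0.20 ± 0.16.

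Calmodulin genes and proteins that bind calcineurin or compete with it made a list of 11, of which 8 were tested and 0 passed. Akap1, an anchoring protein of the outer mitochondrial membrane, was at 9.92 and 9.87 FPKM in B10+ cells, against 6.59 and 1.41 in B10- cells. The groups do not overlap, and the log2 difference was 1.35 ± 1.17 (SD between the cultures; limma with the block, adjusted p = 0.286). Calm3, 1 of 3 calmodulin genes, was at 179.0 and 24.96 FPKM in B10+ cells, against 116.5 and 12.7 in B10- cells (limma with the block, adjusted p = 0.14). Homer3, a scaffold known in T cells to compete with calcineurin for NFAT, was at 1.64 and 0.785 FPKM in B10+ cells, against 2.37 and 1.04 in B10- cells. Calm3 was thus higher and Homer3 lower in B10+ cells in both cultures, and neither passed.

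Kinases that put phosphates back on NFAT, and its nuclear transport, gave 11 tested genes with a median log2 difference of 0.02 and 0 past the threshold. Dyrk2, an NFAT kinase, was at 13.8 and 37.5 FPKM in B10+ cells, against 25.3 and 49.9 in B10- cells, with a log2 difference of -0.62 ± 0.30 (SD between the cultures; limma with the block, adjusted p = 0.246). Gsk3b, another NFAT kinase, and Xpo1, the nuclear export receptor, had log2 differences of 0.38 ± 0.41 and 0.38 ± 0.11. Of 13 genes of NFAT partners, 12 were tested and 0 passed, against 0.858% of all tested entries with the block. In both cultures 1 was higher and 6 were lower in B10+ cells, against 33.4% and 31.8% of all tested entries. Fosb, an AP-1 subunit, was at 1.303 and 1.753 FPKM in B10+ cells, against 4.25 and 3.83 in B10- cells. Both B10+ libraries were below both B10- libraries (log2 difference -1.0 ± 0.27, SD between the cultures; adjusted p = 0.128 in limma with the block and 1 otherwise). Jun and Mef2c had log2 differences of 0.50 ± 0.71 and -0.45 ± 0.11.

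Known NFAT target genes of lymphocytes spread in both directions, from -1.16 to 3.03 on the log2 scale. The list held 21 genes, of which 15 were tested, and the median log2 difference was 0.25. In both cultures 7 were higher and 6 lower in B10+ cells, against 33.4% and 31.8% of all tested entries. With the culture as a replicate block 4 rose and 0 fell, against 0.781% and 0.0772% of all entries, and without the block 0 passed. The 4 were the inhibitory receptors Pdcd1 and Ctla4 and the cytokines Il21 and Ifng, with log2 differences of 3.03 ± 0.05, 2.66 ± 0.69, 1.69 ± 0.03 and 1.77 ± 0.11 (SD between the cultures; limma with the block, adjusted p = 0.026, 0.0463, 0.0395 and 0.0395). Il2, Lag3 and Csf2, named after their values were seen, were also higher in both cultures (limma with the block, adjusted p = 0.0502, 0.0523 and 0.227). The 6 that were lower in both cultures, named in the same way, were Tnf, Egr2, Egr3, Nr4a1, Myc and Ccl3, with 0 past the threshold. T cells also express the 4 genes that rose, and summed T cell markers stood higher in the B10+ libraries, at 37.8 and 26.1 FPKM against 19.0 and 8.93 in B10- cells. The part of this in the target genes was not tested.

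**Figure D5:**
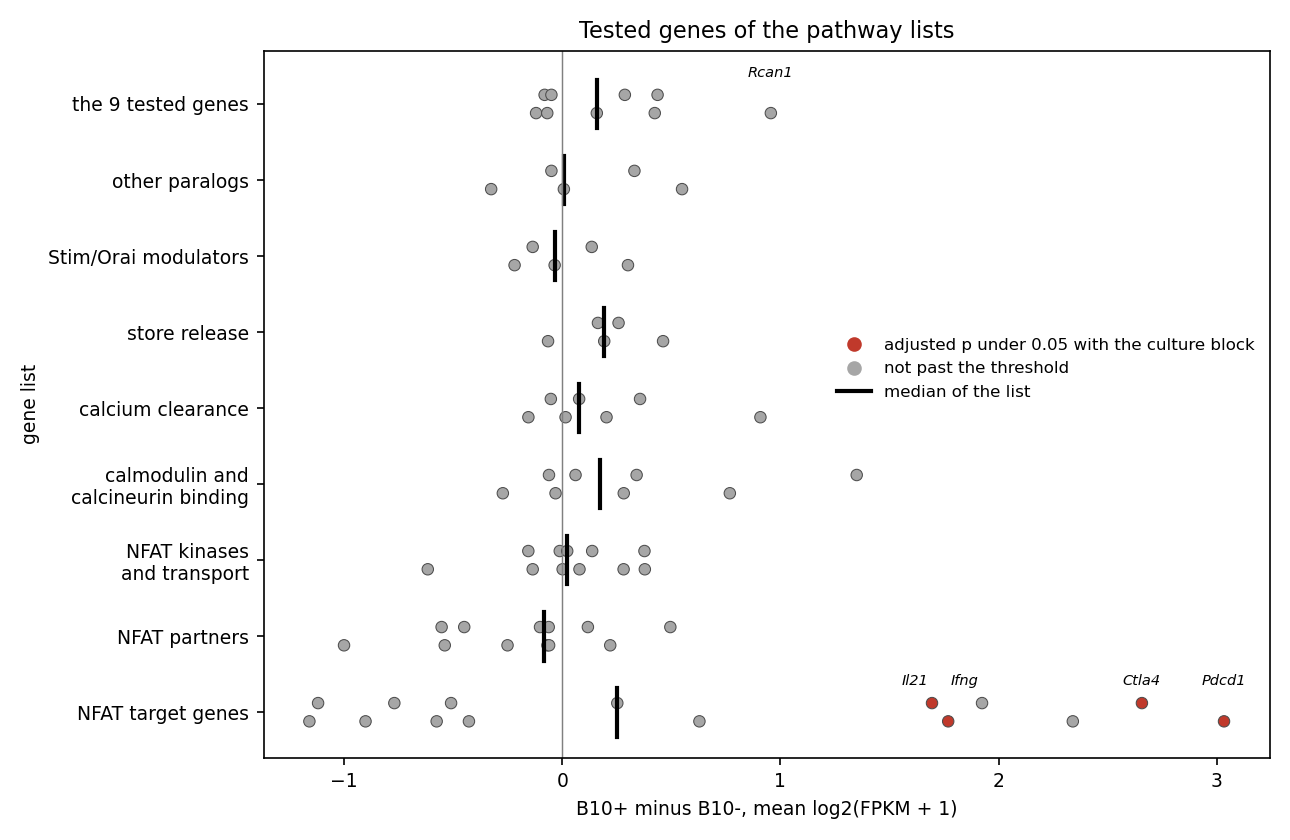
Mean B10+ minus B10- on the log2(FPKM + 1) scale (horizontal axis) for the tested genes of each list, with list medians as bars and genes past an adjusted p of 0.05 with the culture block in red. Pdcd1, Ctla4, Il21 and Ifng of the target list are the 4 red points; Rcan1 at 0.96 is the farthest of the 9 tested genes of the set.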

How the data were processed

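The authors deposited 1 table of FPKM values, per the file headers, with 1 column per library. Listed in the submitters' processing notes are mm9, bcl2fastq 1.8.4, TopHat 1.3.2, Cufflinks 2.1.1 and DESeq, with no roles. Their settings, the annotation and the strand handling were not given in the sources used here. Read depth is unknown, so no counting interval is given. Starts in the table count from 0, so 1 was added.

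Values were tested as log2(FPKM + 1) where an entry reached 1 FPKM in at least 2 libraries (10367 entries), with limma-trend (limma 3.58.1, R 4.3.3), two-sided. P-values were adjusted over these entries by Benjamini-Hochberg, with 0.05 as the threshold. The first fit had no culture term. The second had the culture as a replicate block, since the labels pair the libraries by culture. Deviations from the group means correlated at 0.865 within a culture. The block leaves 1 residual degree of freedom, so its p-values rest largely on the spread pooled over all entries. Where a symbol has several loci, the one with the highest mean was read.

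Named genes are the 10 members and, in each list, genes past the threshold or else the 3 with the smallest p without the block. Members and lists were chosen with earlier results of these data known. Chp1 was not analysed here. Promoter windows are from RefSeq (GRCm38.p6), a build other than that of the table, and were matched by symbol only.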

Additional observations from a re-analysis of the deposited data

How the results depend on the processing

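Of the 10 genes, 0 passed the adjusted threshold under any alternative run (9 with all 4 libraries, 4 leaving out a library). The number of entries called was 0 without the culture term and 89 with the replicate block. It was 1 with a pseudocount of 0.1 without the block. With the replicate block it was 190 after quantile normalization, 60 with a pseudocount of 0.1 and 45 with no filter on low values. The replicate block changed no call of the 10 genes.

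The median log2 difference of the tested genes was 0.16. It was 0.31 with a pseudocount of 0.1, 0.22 with no filter on low values (10 genes), 0.12 with at least 5 FPKM in 2 libraries (8 genes) and -0.0416 after quantile normalization, with or without the replicate block. Orai2 reversed to -0.0416 after quantile normalization, also with the block. The cause was not tested. All other genes kept their direction in the alternatives with 4 libraries.

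With a library left out the cultures no longer balance, and the lone library of a subset is then assumed to vary like the others. Calls over all entries ran over 4 to 144 (4 without B10+ replicate 1, 5 without B10+ replicate 2, 144 without B10- replicate 1 and 11 without B10- replicate 2), the members called over 0 to 0, and the median of the members over 0.0392 to 0.44. The log2 difference stayed above 0 for Stim2 (0.20 to 0.38) and Rcan1 (0.59 to 1.32). It ran over both signs for Stim1 (-0.64 to 1.51), Orai1 (-0.42 to 0.32), Orai2 (-0.13 to 0.44), Ppp3ca (-0.65 to 0.52), Ppp3r1 (-0.0032 to 0.85), Nfatc1 (-0.89 to 0.73) and Nfatc3 (-0.55 to 0.31). Replicates 1 and 2 are cultures 1 and 2. Depth is unknown, and Nfatc2, Orai2 and, in culture 2 of B10- cells, Stim1 (1.27 FPKM) lie near or under 1 FPKM.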
